A study of Homo sapiens with 6 samples.

Results

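Cyclic nucleotide phosphodiesterases were examined in 6 RNA-seq libraries of MiaPaCa2, a human pancreatic cancer cell line, through 10 genes of this enzyme superfamily (PDE1C, PDE3A, PDE3B, PDE4A, PDE4B, PDE4D, PDE5A, PDE7A, PDE8A and PDE10A) among the 42540 rows of the gene count table. Members were taken by gene symbol, with the row of the highest total where a symbol was repeated. Of the members this applied only to PDE3B, which had 2 rows, and its other row was not used. The family was selected on the measured counts of PDE5A, which were high in some libraries and near 0 in others, so the values of PDE5A are given as a description with no test. All cells carried CasRx, an RNA-targeting Cas13d nuclease, brought in with a transposon. The 3 control libraries (genotype label WT) had no guide, and the 3 knockdown libraries (label KD) additionally received a lentiviral guide against PPP2R1A, which encodes a scaffold subunit of protein phosphatase 2A, with puromycin selection and a DsRed reporter. The knockdown therefore rests on 1 engineered line, and the labels do not say whether the libraries of a group came from separate cultures, so the p-values given here reflect library-to-library spread alone. Libraries are named by group and number (control 1 to 3, knockdown 1 to 3). According to the study the samples were independent and collected over a period of weeks, and the third knockdown sample, the latest and of higher passage, was set aside for its weaker knockdown. The library names in the labels carry 8, 15 and 22 for numbers 1, 2 and 3 in both groups, with no unit stated.

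Phosphodiesterases hydrolyse the second messengers cAMP and cGMP, which adenylyl and guanylyl cyclases make and which act through protein kinase A, protein kinase G, the Epac exchange factors and cyclic nucleotide-gated channels. The families differ in substrate: the PDE4, PDE7 and PDE8 enzymes act on cAMP, PDE5A and PDE9A on cGMP, and the PDE1, PDE3 and PDE10 enzymes on both. PDE5A is the target of sildenafil, and the PDE4 enzymes are the targets of rolipram and roflumilast.

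PPP2R1A was measured at 590, 624 and 648 CPM (counts per 1000000 counted reads, with library sizes scaled by edgeR's TMM factors) in control 1, 2 and 3, at 143 and 142.5 CPM in knockdown 1 and 2, and at 545 CPM in the library labelled knockdown 3. The targeted transcript was thus strongly reduced in knockdown 1 and 2 and stood near the control level in the library labelled knockdown 3. Its log2 fold change of knockdown 1 and 2 against control 1 and 2 was -2.09 (SE 0.0851, adjusted p = 0.0107). A second irregularity lay in control 3. Differences of at least 4-fold between libraries were counted over 11444 genes that reached 5 CPM. Control 1, control 2 and the library labelled knockdown 3 differed from each other at 188 to 236 of them. Knockdown 1 and 2 differed from each other at 188 genes, and from those 3 libraries at 534 to 615. Control 3 differed from the same 3 libraries at 462 to 509 genes, and from knockdown 1 and 2 at 810 and 766. Because the study set the third knockdown sample aside, the test compared knockdown 1 and 2 with the controls of the same numbers, and libraries numbered 3 are shown beside it. Total counts ran from 28499214 to 45040033 per library. Of the defining markers, VIM (135503 to 364438 counts) and KRT8 (21954 to 266196 counts) were abundant, EPCAM and CDH1 had at most 1 and 6 counts in any library, and CDH2, PTPRC, CD3E, PECAM1 and LUM were at 0. Markers of the same immune and endothelial list that did have counts, CDH5 above all, are given with the marker sums.

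The promoter sequences of PDE5A and PDE4A are shown first, the 2 members that stood together lowest in knockdown 1, knockdown 2 and control 3. The cAMP pathway feeds back on its own enzymes through CREB, the transcription factor that binds the cAMP response element. PDE4A acts on cAMP and PDE5A on cGMP, and regulation of either gene by CREB was not tested. The table of RefSeq promoters used here (GRCh38.p14) held 34 transcript starts of 8 members, and those of PDE3B and PDE7A were not analysed. The 250 bases before the farthest upstream start of each gene follow, 5′ to 3′ on the gene's strand, with capitals marking TGACG, the short form of this element, or its reverse complement CGTCA. PDE5A lies on the minus strand (chr4:119628805-119629054) and PDE4A on the plus strand (chr19:10416523-10416772).
PDE5A: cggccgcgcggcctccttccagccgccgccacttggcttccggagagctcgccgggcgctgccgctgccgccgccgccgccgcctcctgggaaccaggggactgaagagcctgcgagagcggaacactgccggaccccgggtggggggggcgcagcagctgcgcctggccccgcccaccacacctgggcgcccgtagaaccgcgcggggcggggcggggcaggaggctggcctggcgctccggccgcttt
PDE4A: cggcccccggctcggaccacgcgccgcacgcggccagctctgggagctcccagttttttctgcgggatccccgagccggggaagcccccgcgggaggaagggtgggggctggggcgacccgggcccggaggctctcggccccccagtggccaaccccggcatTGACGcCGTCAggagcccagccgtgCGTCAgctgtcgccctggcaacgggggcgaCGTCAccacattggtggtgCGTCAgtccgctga
The PDE4A window holds 5 short elements, and the PDE5A window holds none. Neither window has the full element TGACGTCA. Both are rich in CpG, with 33 and 28 CpG dinucleotides and a GC content of 78.8% and 74.0%, against medians of 11 and 58.0% over all 35116 RefSeq windows of this length. Of the members' 34 windows, 2 hold a short element (1 of PDE4A and 1 of PDE4D) and none holds the full one. Over all windows the short element occurs in 21.2% and the full element in 1.65%. These matches describe letters only, and gene counts do not show which start was in use.

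PDE5A, the cGMP-specific phosphodiesterase, was either abundant or close to absent. Control 1 held 6768 counts and control 2 held 6124, while control 3 held 4. Knockdown 1 held 3 counts, knockdown 2 held 8, and the library labelled knockdown 3 held 8085. The order of the libraries, in CPM, was control 1 (238), control 2 (221), the library labelled knockdown 3 (189.5), knockdown 2 (0.171), control 3 (0.125) and knockdown 1 (0.0829). The 3 low libraries could not be ordered at this depth, since their exact 95% Poisson intervals of 0.0736 to 0.336, 0.0341 to 0.320 and 0.0171 to 0.242 CPM overlap. Such intervals cover counting error only. The mean was 229 ± 12.4 CPM in control 1 and 2 and 0.127 ± 0.0620 CPM in knockdown 1 and 2 (SD, n = 2 each). Summed over libraries, control 1 and 2 were 1734 times as high as knockdown 1 and 2 (95% counting interval 969 to 3475) and 1834 times as high as control 3 (716 to 6730), and the library labelled knockdown 3 was 1514 times as high as control 3 (591 to 5558). In library pairs of equal number the log2 difference of knockdown minus control, with 0.5 CPM added, was -8.68, -8.37 and +8.25. In RNA of a whole culture, fewer cells that express a gene and less RNA per cell cannot be told apart.

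**Figure D1:**
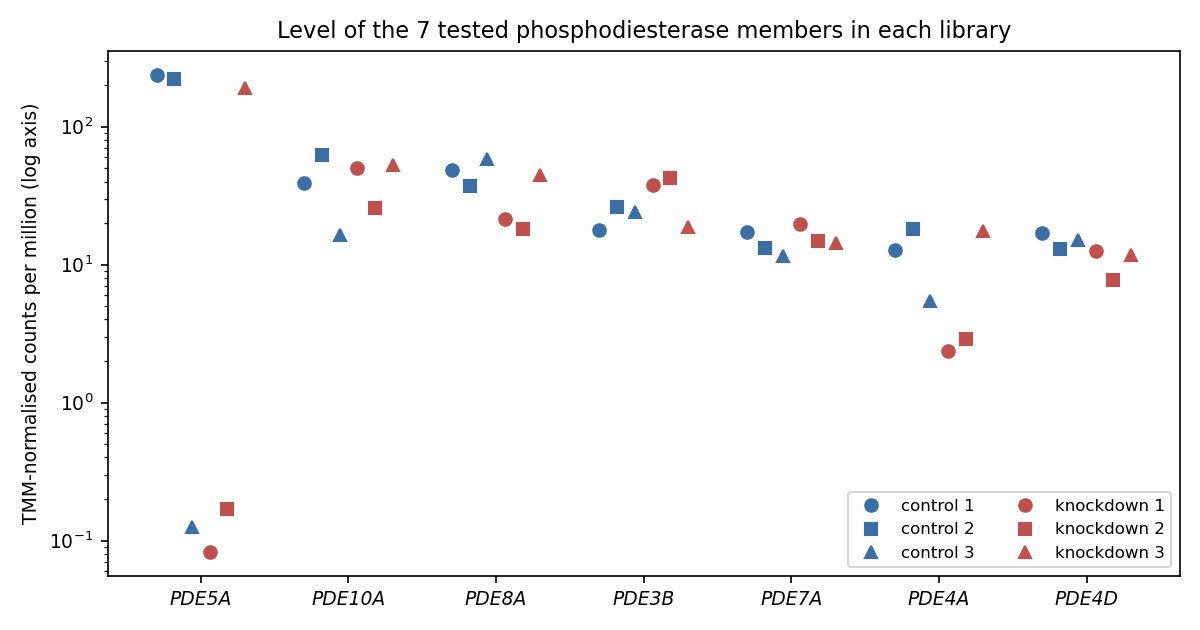
Level of the 7 members that passed the filter on low counts, in TMM-normalised CPM on a log axis. Each point is 1 library, blue for control and red for knockdown, with circle, square and triangle for numbers 1, 2 and 3. PDE5A sits between 189.5 and 238 CPM in control 1, control 2 and knockdown 3 and at 0.171 CPM or less in the other libraries, and PDE4A is lowest in the same 3 libraries.

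Apart from PDE5A, 6 of the 9 other members passed edgeR's filter on low counts and were tested across all genes. Of these 6, 2 fell in knockdown 1 and 2 (PDE4A and PDE8A), none rose, and 4 did not pass an adjusted p of 0.05 (3 of 6 had an unadjusted p under 0.05). Neither call held when control 3 was added to the controls or when all 6 libraries were compared. DESeq2, another test for counts, called 1 of them higher (PDE3B) and 2 lower, and limma-voom 0 and 2. Over all 15596 genes tested, 13.6% were called, 7.15% higher and 6.41% lower. The median log2 fold change of the 6 was -0.51, beside 0.01 over all genes. The family was chosen for PDE5A with earlier results of these data known, so the counts describe it and do not test it.

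The PDE4 enzymes are the main cAMP-specific phosphodiesterases of many tissues. PDE4A measured 12.7 and 18.1 CPM in control 1 and 2, 5.44 CPM in control 3, 2.38 and 2.88 CPM in knockdown 1 and 2, and 17.6 CPM in the library labelled knockdown 3. The knockdown 1 and 2 values lay below every other library, and control 3 lay between them and the rest. PDE4A fell 5.88-fold in knockdown 1 and 2 (log2 fold change -2.56, SE 0.271, 95% interval -3.31 to -1.80, adjusted p = 0.0229). The adjusted p was between 0.0642 and 0.112 when any 1 of the 4 libraries was left out, which removed every call across the genome. It was 0.102 with control 3 added, and with all 6 libraries the log2 fold change was -0.66 (adjusted p = 0.796). PDE4D, the paralog with the broadest expression, measured 17.0 and 13.0 CPM in control 1 and 2, 15.2 CPM in control 3, 12.5 and 7.74 CPM in knockdown 1 and 2, and 11.8 CPM in the library labelled knockdown 3. Its difference did not pass the test (log2 fold change -0.58, 95% interval -1.46 to 0.31, adjusted p = 0.294). PDE4B, an isoform prominent in leukocytes, had 18 counts in control 3 and 0 in the other 5 libraries. Against control 1 and 2 this is at least 10.5-fold higher, taking 3 counts over both libraries as the limit that a count of 0 allows.

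PDE8A and PDE7A encode high-affinity cAMP-specific enzymes. PDE8A measured 48.4 and 37.3 CPM in control 1 and 2, 57.9 CPM in control 3, 21.5 and 18.0 CPM in knockdown 1 and 2, and 44.6 CPM in the library labelled knockdown 3. Here control 3 was the highest library, and only knockdown 1 and 2 were low. PDE8A fell 2.18-fold in knockdown 1 and 2 (log2 fold change -1.12, SE 0.196, 95% interval -1.67 to -0.57, adjusted p = 0.0431). This call was close to the threshold: the adjusted p was 0.0672 with scaling by library size alone, 0.0571 without a filter on low counts, 0.0928 to 0.184 with 1 library left out, and 0.0598 with control 3 added. With all 6 libraries the log2 fold change was -0.77 (adjusted p = 0.581). PDE7A ranged from 11.6 to 19.6 CPM over the 6 libraries, with the groups overlapping, and did not pass the test (log2 fold change 0.17, 95% interval -0.50 to 0.85, adjusted p = 0.675).

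Of the enzymes that act on both nucleotides, PDE3B, whose cAMP hydrolysis is inhibited by cGMP and which acts in insulin signalling, measured 17.9 and 26.3 CPM in control 1 and 2, 24.0 CPM in control 3, 37.9 and 42.1 CPM in knockdown 1 and 2, and 18.8 CPM in the library labelled knockdown 3. Knockdown 1 and 2 were the 2 highest libraries, and the difference missed the threshold in edgeR (log2 fold change 0.85, 95% interval 0.19 to 1.5, adjusted p = 0.0973) and passed it in DESeq2 (adjusted p = 0.0229). PDE10A, best known from striatal neurons, varied within both groups, from 39.1 and 62.5 CPM in control 1 and 2 to 16.4 CPM in control 3, and from 49.8 and 25.6 CPM in knockdown 1 and 2 to 52.6 CPM in the library labelled knockdown 3. Its groups overlapped (log2 fold change -0.44, 95% interval -1.65 to 0.77, adjusted p = 0.549). PDE3A, the cardiovascular paralog of PDE3B, had 0 to 9 counts per library, and PDE1C, a calmodulin-dependent enzyme, had 0 in all 6.

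The libraries numbered 3 were then compared with those numbered 1 and 2, since the knockdown was weaker there. The difference of the 2 knockdown effects was tested in edgeR as an interaction over all 6 libraries, in which the single libraries numbered 3 have no spread of their own and are assumed to vary like the others. Control 3 was at least 4-fold apart from control 1 and 2 at 509 and 491 genes, so each p of this test rests on that assumption. Across 15386 genes 4.54% passed the test, 2.35% upward and 2.19% downward. Among the 6 other members tested, 1 passed. PDE4A had a log2 difference of knockdown minus control of -2.20 and -2.46 for numbers 1 and 2 and +1.61 for number 3, an interaction of 4.24 on the log2 scale (SE 0.459, adjusted p = 0.0391). The interaction of PDE10A was 2.11 (adjusted p = 0.181), that of PDE3B -1.21 (adjusted p = 0.165), and that of PDE8A 0.74 (adjusted p = 0.244). With 1 of the libraries numbered 1 or 2 left out, the adjusted p of PDE4A was 0.0853 to 0.117.

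By sign alone, PDE4A was the 1 of these 6 members that was lower in numbers 1 and 2 and higher in number 3, the order seen in PDE5A, and 20.2% of all tested genes had that order. PDE3B was the 1 member with the opposite order, which 20.2% of tested genes also had. PDE4D and PDE8A were lower in the knockdown library of all 3 numbers, and PDE7A was higher in all 3. The sign pattern of PDE5A was thus shared by 1 of the other 6.

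**Figure D2:**
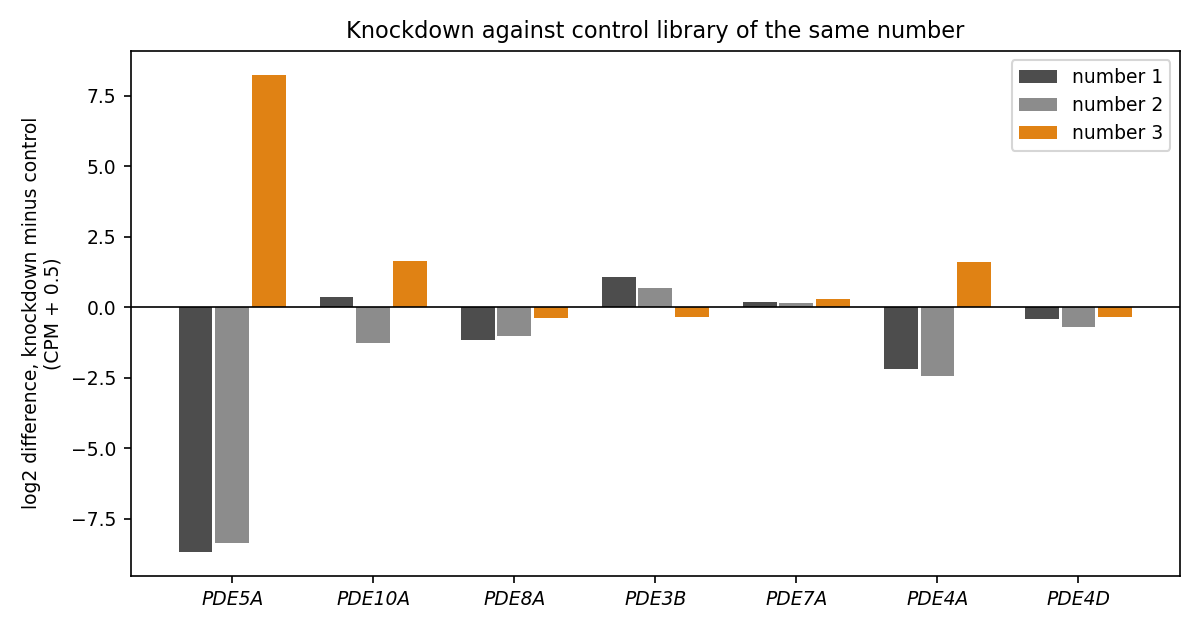
Log2 difference of the knockdown minus the control library of the same number, with 0.5 CPM added, for the 7 members that passed the filter. Each bar is 1 pair of libraries and has no error of its own. The bar of number 3 points opposite to those of numbers 1 and 2 for PDE5A (+8.25), PDE4A (+1.61) and PDE3B (-0.34).

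Levels were compared between genes as CPM per kilobase of merged GENCODE 29 exons. Over the 10 members and 11 other phosphodiesterase genes, the sum was 40.1 and 38.8 CPM per kb in control 1 and 2 and 35.9 in the library labelled knockdown 3, but 16.3 in control 3 and 13.8 and 11.7 in knockdown 1 and 2. PDE5A made up 60.8%, 58.2% and 54.0% of the sum in the former 3 libraries and at most 0.149% in the others. Without PDE5A, the sums came to 15.7, 16.2 and 16.3 CPM per kb in control 1 to 3, 13.8 and 11.7 in knockdown 1 and 2 and 16.5 in the library labelled knockdown 3. PDE5A ranked 1 of the 21 genes in the 3 libraries where it was high, and 12 to 14 elsewhere. In its place PDE8A was the most abundant phosphodiesterase transcript on this scale in control 3, at 45.1% of the sum. In knockdown 1 and 2 it was PDE3B, at 23.5% and 30.7%. This order depends on the exon length used, 22.02 kb for PDE10A and 11.71 kb for PDE3B. Before division by length, PDE10A (49.75 CPM) was above PDE3B (37.9 CPM) in knockdown 1. Transcripts of cGMP-specific enzymes (PDE5A, PDE9A and the PDE6 genes) made up 61.8% and 60.1% in control 1 and 2, 56.6% in the library labelled knockdown 3, 13.8% in control 3 and 6.33% and 7.61% in knockdown 1 and 2. The larger share in control 3 came from PDE9A, which had 376 counts there and 61 to 216 in the other libraries.

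**Figure D3:**
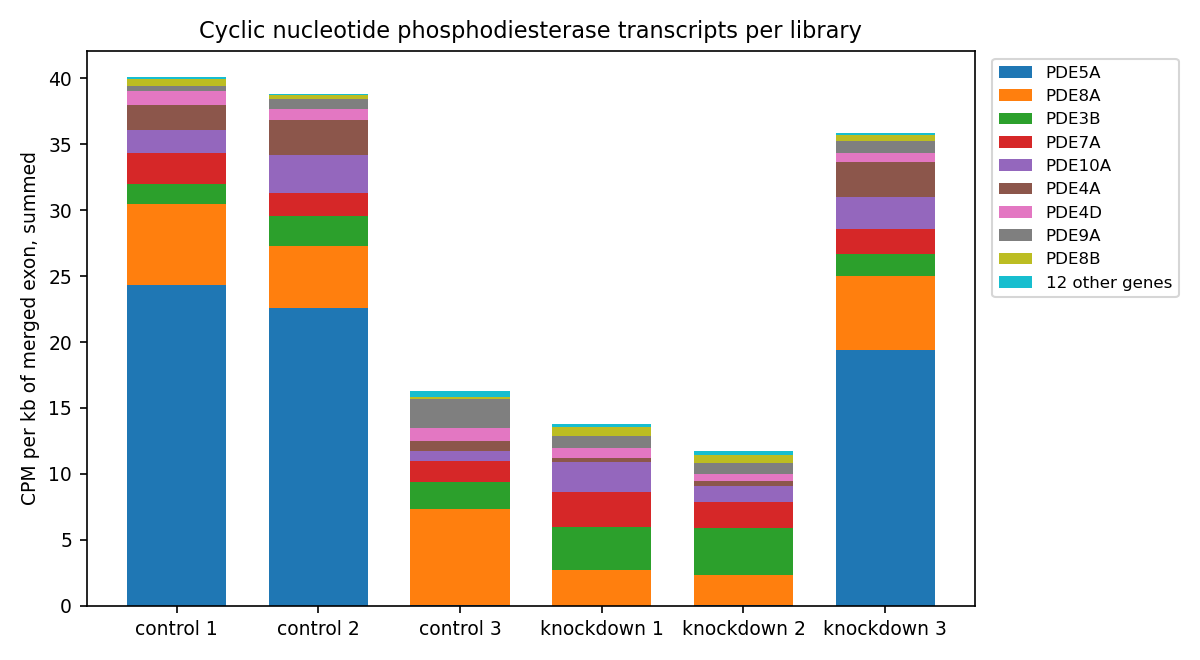
Summed level of 21 cyclic nucleotide phosphodiesterase genes in each library, in CPM per kilobase of merged exon; each colour is 1 gene and the last is the sum of 12 genes of low level. The bars of control 1, control 2 and knockdown 3 reach 35.9 to 40.1, and those of the other libraries 11.7 to 16.3, with PDE5A absent from the lower bars.

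Of the 11 other phosphodiesterase genes, 8 had counts and 5 were tested, of which 1 rose and none fell (4 of 5 did not pass, and 1 had an unadjusted p under 0.05). DESeq2 and limma-voom called the same numbers. The riser was PDE1A, a calmodulin-dependent enzyme, with 0 counts in control 1 and 2, 30 in control 3, 23 and 27 in knockdown 1 and 2, and 0 in the library labelled knockdown 3. Its presence was thus the mirror image of PDE5A at far lower depth. PDE1A was at least 11.3-fold higher in knockdown 1 and 2 than in control 1 and 2 (adjusted p = 0.0367) and at least 17.6-fold higher in control 3. The call did not hold with control 3 added (log2 fold change 0.90, adjusted p = 0.792) or with all 6 libraries (0.33, adjusted p = 0.956), and PDE1A was not tested where 50 counts in 2 libraries were required. PDE9A did not pass the test (log2 fold change 0.58, adjusted p = 0.342), and neither did PDE8B (0.70, adjusted p = 0.186), whose locus is shared with 3 other rows of the table.

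Among 100 pathway genes around the enzymes, 80 had counts and 62 were tested. Of the 62, 9 rose (14.5%) and 5 fell (8.06%) in knockdown 1 and 2, beside 7.15% and 6.41% of all genes, with a median log2 fold change of 0.10. The lists were drawn up with earlier results of these data known. When control 3 was added to the controls, 5 rose and 2 fell. With scaling by library size alone 12 rose and 3 fell.

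Cyclases supply the substrate. Of 18 cyclase genes, 6 were tested, 1 fell and none rose, with 4 at an unadjusted p under 0.05 and a median log2 fold change of -0.19. DESeq2 called 1 higher and 3 lower, and limma-voom 1 and 1. ADCY3, a calcium-responsive adenylyl cyclase, measured 133.7 and 124.6 CPM in control 1 and 2, 34.5 CPM in control 3, 52.2 and 68.8 CPM in knockdown 1 and 2, and 57.3 CPM in the library labelled knockdown 3. It fell in knockdown 1 and 2 (log2 fold change -1.10, SE 0.165, adjusted p = 0.0345), a call lost without a filter on low counts (adjusted p = 0.0522) and when control 3 was added (0.559). The substrate of PDE5A is made by guanylyl cyclases. The nitric oxide-sensitive subunits GUCY1A1 and GUCY1B1, named after their values were seen, had at most 3 and 0 counts in any library, and the natriuretic peptide receptor NPR2 had 72 to 166 counts.

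Effectors bind the nucleotides. Of 26 genes, 14 were tested, 2 rose and none fell in edgeR (7 had an unadjusted p under 0.05, median log2 fold change 0.39). DESeq2 called 3 higher and 1 lower, and limma-voom 2 and 0. RAPGEF3, which encodes the cAMP-activated exchange factor Epac1, measured 1.30 and 1.30 CPM in control 1 and 2, 0.845 CPM in control 3, 17.6 and 16.3 CPM in knockdown 1 and 2, and 1.34 CPM in the library labelled knockdown 3. Knockdown 1 and 2 stood apart from all other libraries, control 3 included (log2 fold change 3.69, SE 0.177, adjusted p = 0.0118). RAPGEF4, which encodes Epac2, had 191 and 186 counts in knockdown 1 and 2 and 0 to 19 in the other libraries (log2 fold change 3.14, SE 0.427, adjusted p = 0.0306). PRKG1, the kinase that cGMP activates, had 2 to 9 counts per library and was named after its values were seen.

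Anchoring proteins hold protein kinase A and phosphodiesterases in place. Of 17 genes, 14 were tested, 2 rose and 1 fell (median log2 fold change 0.29). AKAP11 rose from 36.0 and 32.0 CPM in control 1 and 2 to 66.9 and 61.2 CPM in knockdown 1 and 2, with 38.1 CPM in control 3 and 28.6 CPM in the library labelled knockdown 3 (log2 fold change 0.91, SE 0.119, adjusted p = 0.0292). AKAP3 rose (log2 fold change 1.67, adjusted p = 0.0336) and AKAP5 fell (log2 fold change -1.76, adjusted p = 0.0462), both with 15 to 157 counts per library. The call of AKAP5 was lost with scaling by library size alone (adjusted p = 0.0507) and without a filter (0.0611). Both calls were lost when control 3 was added (adjusted p = 0.1045 for AKAP5 and 0.205 for AKAP3).

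Receptors and G proteins act upstream of the cyclases. Of 18 genes, 13 were tested, 3 rose and 2 fell (median log2 fold change -0.02). PTGER4, a prostaglandin E2 receptor that raises cAMP, had 3 and 3 counts in control 1 and 2, 43 in control 3, 53 and 134 in knockdown 1 and 2, and 7 in the library labelled knockdown 3 (log2 fold change 4.29, SE 0.540, adjusted p = 0.0276). With control 3 added its adjusted p was 0.372. GNAS, the stimulatory G protein subunit, fell from 787.6 and 777.1 CPM to 513 and 491.5 CPM (log2 fold change -0.65, SE 0.0789, adjusted p = 0.0269), while GNAL, its olfactory paralog, rose from 17.1 and 14.2 CPM to 38.4 and 37.1 CPM (log2 fold change 1.27, SE 0.151, adjusted p = 0.0262). In control 3 and the library labelled knockdown 3, GNAS measured 886.6 and 727.3 CPM and GNAL 21.4 and 17.4 CPM. The call of GNAL was lost when control 3 was added (adjusted p = 0.0647). GNAI3, an inhibitory subunit whose locus is shared with 1 other row of the table, measured 210.0 and 185.8 CPM in control 1 and 2, 151.0 CPM in control 3, 107.9 and 87.4 CPM in knockdown 1 and 2, and 177.6 CPM in the library labelled knockdown 3. It was lowest in knockdown 1 and 2 (log2 fold change -1.03, SE 0.153, adjusted p = 0.0342), and the call was lost with scaling by library size alone (adjusted p = 0.0529) and when control 3 was added (0.0747).

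At the transcriptional end, none of the 8 CREB factors and coactivators passed the test in edgeR or limma-voom, and 1 was lower in DESeq2 (1 had an unadjusted p under 0.05, median log2 fold change -0.16). The most abundant were the acetyltransferases EP300 (log2 fold change 0.11, adjusted p = 0.532) and CREBBP (-0.38, adjusted p = 0.164). The locus of EP300 covers 3 rows of the table, so its counts may include reads of other genes. Of 13 textbook CREB target genes, 7 were tested, 2 rose and 1 fell (median log2 fold change 0.30). NR4A1, an immediate-early nuclear receptor, was counted 52, 44 and 25 times in control 1 to 3, 353 and 432 times in knockdown 1 and 2, and 77 times in the library labelled knockdown 3 (log2 fold change 2.46, SE 0.195, adjusted p = 0.0163). FOS, the AP-1 subunit, rose from 2.60 and 2.52 CPM to 7.46 and 6.65 CPM (log2 fold change 1.45, SE 0.189, adjusted p = 0.0291). VGF, a neuropeptide precursor, fell from 92.2 and 79.5 CPM to 40.5 and 43.5 CPM (log2 fold change -1.04, SE 0.118, adjusted p = 0.0246). In control 3 and the library labelled knockdown 3, FOS measured 2.785 and 2.086 CPM and VGF 82.35 and 128.9 CPM. With all 6 libraries the log2 fold change in edgeR was 1.03 for FOS (adjusted p = 0.581) and -0.25 for VGF (adjusted p = 0.8555).

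**Figure D4:**
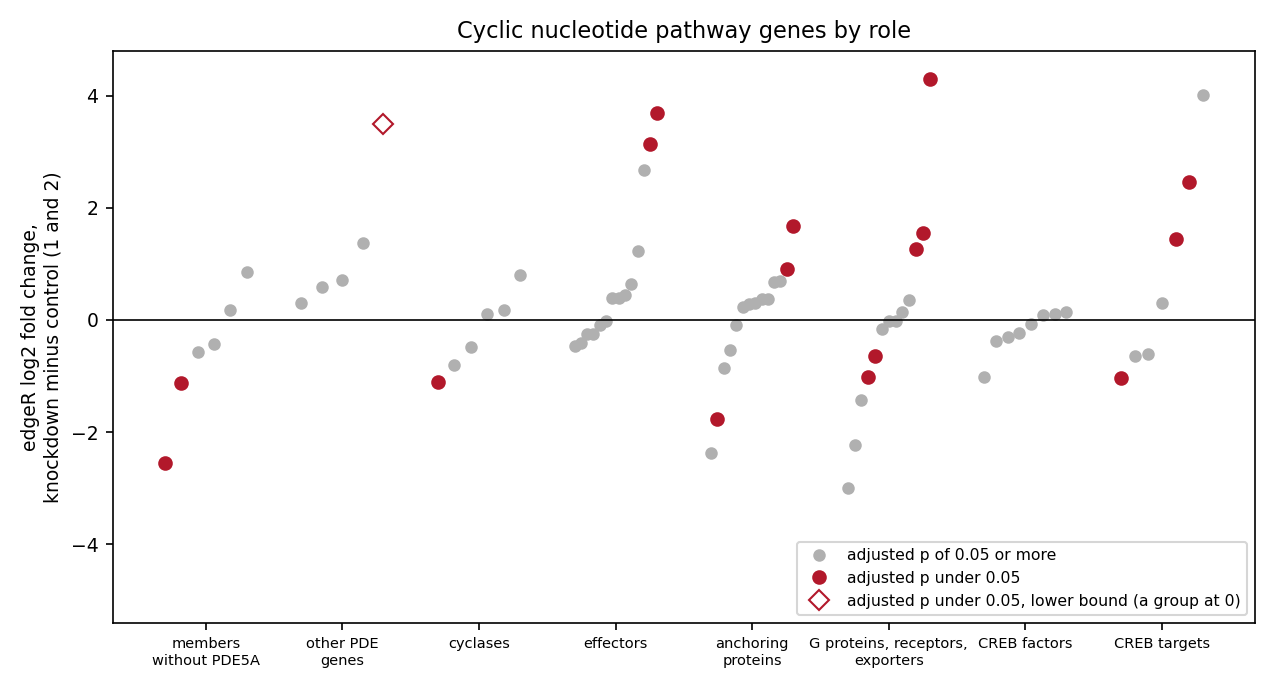
EdgeR log2 fold change of knockdown 1 and 2 against control 1 and 2 for the tested genes of each role, 1 point per gene. Red points have an adjusted p under 0.05 and grey points do not. The open diamond shows PDE1A, whose counts were 0 in control 1 and 2, at the lower bound of its change. Red points lie on both sides of 0 among anchoring proteins, receptors and CREB targets.

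Marker levels also differed between libraries, in an order that was not the same for each list. The summed level of the 7 epithelial markers was 1387 and 1640 CPM in control 1 and 2, 4060 CPM in control 3, 8081 and 9300 CPM in knockdown 1 and 2, and 1372 CPM in the library labelled knockdown 3, led by KRT8 and KRT18. KRT19, of the same list, went the other way, from 43.0 and 46.2 CPM in control 1 and 2 to 15.8 and 11.6 CPM in knockdown 1 and 2 (log2 fold change -1.71, adjusted p = 0.0268). KRT19 and the single markers that follow were named after their values were seen. Of the 4 mesenchymal markers, 3 had counts. Their sum was 7400 to 10670 CPM in the controls and 8587 CPM in the library labelled knockdown 3. In knockdown 1 and 2 it was 3779 and 4792 CPM. VIM made up nearly all of this sum, with 3743 and 4757 CPM in knockdown 1 and 2. None of the 3 passed the test (adjusted p = 0.0570 for VIM). ZEB1 had a log2 fold change of -0.47, and FN1 went the other way (0.51). Of the 7 smooth muscle and fibroblast markers, cells in which PDE5A is abundant, 6 had counts, and their sum was 1.37 to 2.43 CPM in the controls and 2.70 to 5.22 CPM in the knockdown libraries. Within that range the library labelled knockdown 3 had 2.70 CPM. These sums were low in every library, and a relation to PDE5A was not tested. ACTA2 made up most of the sum in knockdown 1 and 2, at 3.37 and 2.26 CPM. MYH11, of the same list, measured 2.43 and 1.12 CPM in control 1 and 2 and 1.85 and 1.47 CPM in knockdown 1 and 2. Of the 6 immune and endothelial markers, 3 had counts, and their sum was 0.25 to 4.43 CPM in the controls, 60.9 and 38.0 CPM in knockdown 1 and 2, and 6.77 CPM in the library labelled knockdown 3. CDH5, the endothelial VE-cadherin, made up most of it, at 59.1 and 36.3 CPM in knockdown 1 and 2. VWF, also endothelial, rose as well (adjusted p = 0.0252). It had 0 counts in the controls, 56 and 65 in knockdown 1 and 2, and 2 in the library labelled knockdown 3. CD68, a macrophage marker whose locus is shared with 6 other rows of the table, was lower in knockdown 1 and 2 (log2 fold change -2.25, adjusted p = 0.0466). Control 3 lay between control 1 and 2 and knockdown 1 and 2 in the epithelial sum, but had the highest mesenchymal sum (10670 CPM). Its smooth muscle and fibroblast sum (1.69 CPM) was at the level of the other controls. Its immune and endothelial sum (0.25 CPM) was the lowest. The part of these shifts in the phosphodiesterase values was not tested.

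The genes around PDE5A on chromosome 4 were read for comparison, in RefSeq order. MAD2L1, which encodes the spindle checkpoint protein Mad2 and was named after its values were seen, is the next gene on one side among those that reached 1 CPM. It measured 194.5 and 179 CPM in control 1 and 2, 89.4 CPM in control 3, 95.2 and 100.8 CPM in knockdown 1 and 2, and 177 CPM in the library labelled knockdown 3. The same 3 libraries were low as for PDE5A, with log2 differences from control 1 and 2 of -0.93 in knockdown 1 and 2 and -1.06 in control 3. USP53, the next gene on the other side, had 9 to 15 counts in the controls, 58 and 68 in knockdown 1 and 2, and 25 in the library labelled knockdown 3. The median of the 100 nearest tested genes of PDE5A was 0.13 in edgeR's log2 fold change. For the other called members the same median was -0.23 (PDE4A) and 0.09 (PDE8A).

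**Figure D5:**
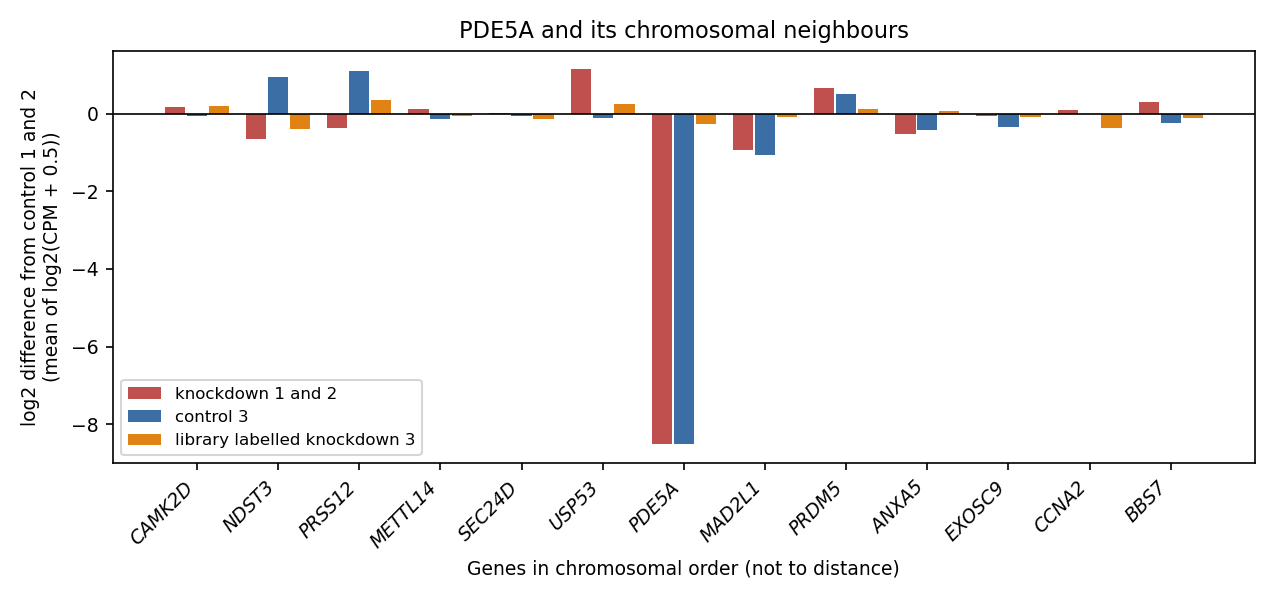
Log2 difference from the mean of control 1 and 2, with 0.5 CPM added, for PDE5A and the 6 genes on each side that reached 1 CPM, in chromosomal order and not to distance. Bars show the mean of knockdown 1 and 2, control 3, and the library labelled knockdown 3. PDE5A differs by -8.52 in the first and second of these and MAD2L1 by -0.93 and -1.06.

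The genes whose pattern over the 6 libraries was most like that of PDE5A were ranked by Pearson correlation of log2 CPM over 11174 genes, as a description, with libraries in separate clusters and no p. CARD16, a caspase-1 inhibitor, had r = 0.999, with 561 and 514 counts in control 1 and 2, 869 in the library labelled knockdown 3 and 0 in the others. NALF1, ITPRIPL1 and PPP1R14A, the last an inhibitor of myosin phosphatase, followed with r of 0.999, 0.999 and 0.998. They had 185 to 536 counts in the same 3 libraries and 0 to 2 counts in the rest. NUP133, a nuclear pore component, was the fifth (r = 0.997), but its level only moved between 140.6 and 182 CPM. PDE4A ranked 243 (r = 0.94). The near absence of transcript in control 3, knockdown 1 and knockdown 2 was therefore not particular to PDE5A.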

How the data were processed

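Total RNA of MiaPaCa2 cells was made into TruSeq RNA libraries. The submitters' processing notes name FastQC, STAR and StringTie; the sources used here give no version, genome build, annotation or use of strand. Deposited values are unnormalised counts per gene, which the authors obtained from aligned reads, and many gene identifiers are StringTie loci, so overlapping genes can share reads. Of 42540 rows, 159 exact repeats were left out (42381 kept), and all columns were used. Total counts of 28499214 to 45040033 per library set the precision.

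Samples were grouped by title. The 10 members and the gene lists were chosen with earlier results of these data known; 2 pathway genes are not reported here and were taken off the lists, though they remained in the tests over all genes. Main test: edgeR 4.0.16 (R 4.3.3), TMM, filterByExpr, quasi-likelihood F test, two-sided, Benjamini-Hochberg over all genes, called at 0.05, for knockdown 1 and 2 against control 1 and 2, and for the interaction of group with number 3. CPM are TMM-normalised. The scripts were tested on simulated data. A fold against a group at 0 used 3 counts over the group. Alternatives were DESeq2 1.42.0, limma-voom (limma 3.58.1), other scalings and filters, each library left out, a replicate block and other library sets. Same-numbered libraries did not deviate together. Named pathway genes were, per list, up to 4 called with the smallest p, or else the 2 most abundant. Likeness used named genes reaching 5 CPM, and the 5 most alike were named.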

Additional observations from a re-analysis of the deposited data

Results flagged for a closer look

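Several results differed between the pair of libraries numbered 3 and those numbered 1 and 2. The knockdown effect differed past the threshold in edgeR's interaction test over all 15386 genes, in which 4.54% of genes passed, for PDE4A (adjusted p = 0.0391), PDE1A (adjusted p = 0.0440), RAPGEF3 (adjusted p = 0.0362), PTGER4 (adjusted p = 0.0439) and VGF (adjusted p = 0.0439). None of these 5 calls held with 1 of the libraries numbered 1 or 2 left out (adjusted p from 0.0853 to 0.117 for PDE4A, 0.0853 to 0.153 for PDE1A, 0.0972 to 0.130 for RAPGEF3, 0.0883 to 0.113 for PTGER4 and 0.0958 to 0.133 for VGF). Without a filter on low counts PDE1A (0.0518), PTGER4 (0.0518) and VGF (0.0597) also missed the threshold. Of the pathway genes, PRKACB (4.33 on the log2 scale) and PRKAR1B (-1.63) also passed the interaction test with the filter, and are given under the other observations. PDE5A was 8.25 higher on the log2 scale in the library labelled knockdown 3 than in control 3. It was lower in knockdown 1 and 2 than in their controls. This difference in PDE5A was not tested, since it chose the family.

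In VGF and PDE4A the library labelled knockdown 3 lay near or above control 1 and 2, and in RAPGEF3 it lay at their level. Control 3 lay nearer to knockdown 1 and 2 in PDE1A and PTGER4, but at the control level in RAPGEF3 and VGF (82.4 CPM in control 3 against 79.5 to 92.2 CPM in control 1 and 2). The interaction rests on 1 control and 1 knockdown library numbered 3, so the effect of the number and that of these single libraries cannot be told apart.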

How the results depend on the processing

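Knockdown 1 and 2 against control 1 and 2 gave 1115 genes higher and 999 lower. DESeq2 called 1847 and 1853 of all genes, 14 and 12 pathway genes (9 and 5 in edgeR), and 1 member higher. Without a filter on low counts 558 genes were lower, and without it or with scaling by library size alone 1 member was lower (PDE8A was lost) and 3 pathway genes were lower. A minimum of 50 counts in 2 libraries left 0 other phosphodiesterase genes called, since PDE1A was not tested. With all 6 libraries 0 genes were higher and 1 lower (1267 at an unadjusted p under 0.05), with 0 members, 0 other phosphodiesterase genes and 0 pathway genes called. With control 3 added but not the library labelled knockdown 3, 363 were higher and 341 lower, with 0 members and 0 other phosphodiesterase genes and 5 and 2 pathway genes. Leaving out 1 library gave 0 to 0 calls in every list in edgeR (3377 to 4797 genes at an unadjusted p under 0.05); the lone library is then assumed to vary like the others. PDE7A turned to -0.045 without knockdown 1 (range over the left-out libraries -0.045 to 0.37), and PDE10A to 0.118 with all 6 libraries. For the interaction (362 higher and 337 lower), DESeq2 called 1197 and 1137, no filter 202 and 176, and leaving out 1 library 0 to 37 higher and 0 to 17 lower, with 0 to 0 members. PDE4D turned to -0.0992 without knockdown 2 (range -0.0992 to 0.59), and PDE7A to -0.051 without control 1 and -0.0569 without knockdown 2 (range -0.0569 to 0.36). Of the 5 genes most like PDE5A, 4 stayed under each other pseudocount and scaling. The cause of these shifts was not tested, other than fewer libraries or genes by construction.

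Same-numbered libraries did not deviate together (correlations 0.0023, -0.0195 and -0.1146). With the replicate number as a block, 0 genes were called in edgeR in either direction, 0 members, 0 other phosphodiesterase and 0 pathway genes, with 5162 at an unadjusted p under 0.05 (adjusted p = 0.0630 for PDE4A and 0.0651 for PDE8A); the interaction gave 0 higher and 0 lower, with 0 members (adjusted p = 0.0955 for PDE4A, RAPGEF3 and PTGER4, 0.0964 for VGF and 0.117 for PDE1A). At this depth 3 to 8 counts of PDE5A cannot be ordered.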

Other observations

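The catalytic subunits of protein kinase A set control 3 apart from all other libraries; they were named after their values were seen. PRKACB measured 16.2 and 14.7 CPM in control 1 and 2, 20.7 and 21.6 CPM in knockdown 1 and 2 and 13.8 CPM in the library labelled knockdown 3, but 0.501 CPM in control 3, where it had 16 counts. PRKACA measured 16.8 CPM in control 3 and 121 to 232 CPM in the other libraries, and its locus is shared with 2 other rows of the table. The regulatory subunit PRKAR1B had 4523 counts in control 3 and 1593 to 3775 in the others. None of the 3 passed the test of knockdown 1 and 2 against control 1 and 2. The adjusted p was 0.123 for PRKACB, 0.667 for PRKACA and 0.0882 for PRKAR1B. In the interaction test PRKACB (4.33 on the log2 scale) and PRKAR1B (-1.63) passed the threshold, and PRKACA (3.42) did not. That test takes control 3 as a single library, with no spread of its own.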
